A study of Mus musculus with 6 samples.

Results

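Heat shock proteins and cytosolic chaperones were followed in the liver of mice with a progeria allele of the lamin A gene. The 39 listed genes cover the HSP70 and HSP110 families, HSP90 and its co-chaperones, the HSP40 (J protein) co-chaperones, the small heat shock proteins, BAG proteins, the mitochondrial chaperones, subunits of the cytosolic chaperonin, and the heat shock factors. They were found by gene symbol among probe sets annotated with 1 gene, which gave 36 of the 39 members, out of 19938 genes named in this way on the array. Hspa1b was represented by a probe set it shares with another gene, and Hsp90ab1 and Hsf1 had no probe set under their symbols in the annotation used, so these 3 genes are not analysed here. All 36 members found passed the filter on dim probe sets and were tested. Where a member had more than 1 such probe set, the one with the highest mean represents it.

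The mice were C57BL/6 females aged 3 months that were deprived of food for 6 h before they were killed. The homozygous LmnaG609G/G609G knock-in group held 3 animals, numbered 1, 3 and 5, and the wild-type group held 3, numbered 2, 4 and 6, with 1 array of whole liver RNA for each. The knock-in allele is carried in every cell of the animal and alters splicing of the lamin A transcript, and homozygous mice model Hutchinson-Gilford progeria. Values are linear probe set intensities, and the array medians lay between 97.0 and 104. Hepatocyte markers were bright on all arrays, with the sum of 9 markers at 123282 to 132244 in knock-in and 118092 to 119701 in wild-type liver, and 2 of the 9 (Tat and Hnf4a) were called higher in knock-in liver. Of 6 neutrophil markers 3 were called higher, where 13.0% of all genes tested were called higher. The sum of the 6 was 449 to 479 in knock-in and 333 to 369 in wild-type liver. The 3 called (S100a8, Retnlg and Mmp9) were dim, at 34 to 102 over all mice, near or below the array medians. The part of these markers in the results was not tested. In whole tissue, fewer cells of a type and less RNA per cell cannot be told apart. Nothing in the labels shows whether the arrays were processed in batches.

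Heat shock proteins hold unfolded or partly folded proteins and release them in cycles of ATP binding and hydrolysis. HSP40 proteins deliver clients to HSP70, HSP110 proteins and BAG proteins exchange its nucleotide, HSP90 takes over clients such as steroid receptors and kinases, and the ring-shaped chaperonin CCT folds actin and tubulin. Under heat or proteotoxic stress the factor HSF1 binds arrays of the unit GAA in alternating orientation and induces many of these genes, while relatives such as Hspa8 are made constitutively.

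Of the 36 members, 9 were called between the genotypes (25%), which is close to the background, since 26.7% of all 16157 genes tested were called in the same way and 25.9% of all 26634 probe sets. A member was called when its Benjamini-Hochberg adjusted p, taken over all probe sets in limma's moderated test of log2(intensity + 16), was below 0.05. The 4 members called higher in knock-in liver were Hspa2, Hspb8, Dnajb5 and Cct2 (11.1% of members, against 13.0% of all genes and 14.9% of all probe sets). The 5 called lower were Hsf2, Hsph1, Stip1, Dnaja1 and Cryab (13.9% of members, against 13.7% of all genes and 10.9% of all probe sets). The genotypes did not overlap at 16 members, 6 with all knock-in mice above and 10 with all below wild-type, which is 44.4% of members against 42.9% of all genes and 41.1% of all probe sets. The 7 of these that were not called were Bag1 and Tcp1 above and Chordc1, Ahsa1, Dnajb1, Bag3 and Cct5 below. The median log2 change was -0.09 over the members and 0.00 over all genes, and the median size of a change was 0.23 over the members and 0.17 over all genes. The members were thus called about as often as all genes. Over all probe sets, 57.7% of calls were higher in knock-in liver, or 47.7% once arrays were centred on their medians, a scaling under which the same 9 members were called.

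**Figure D1:**
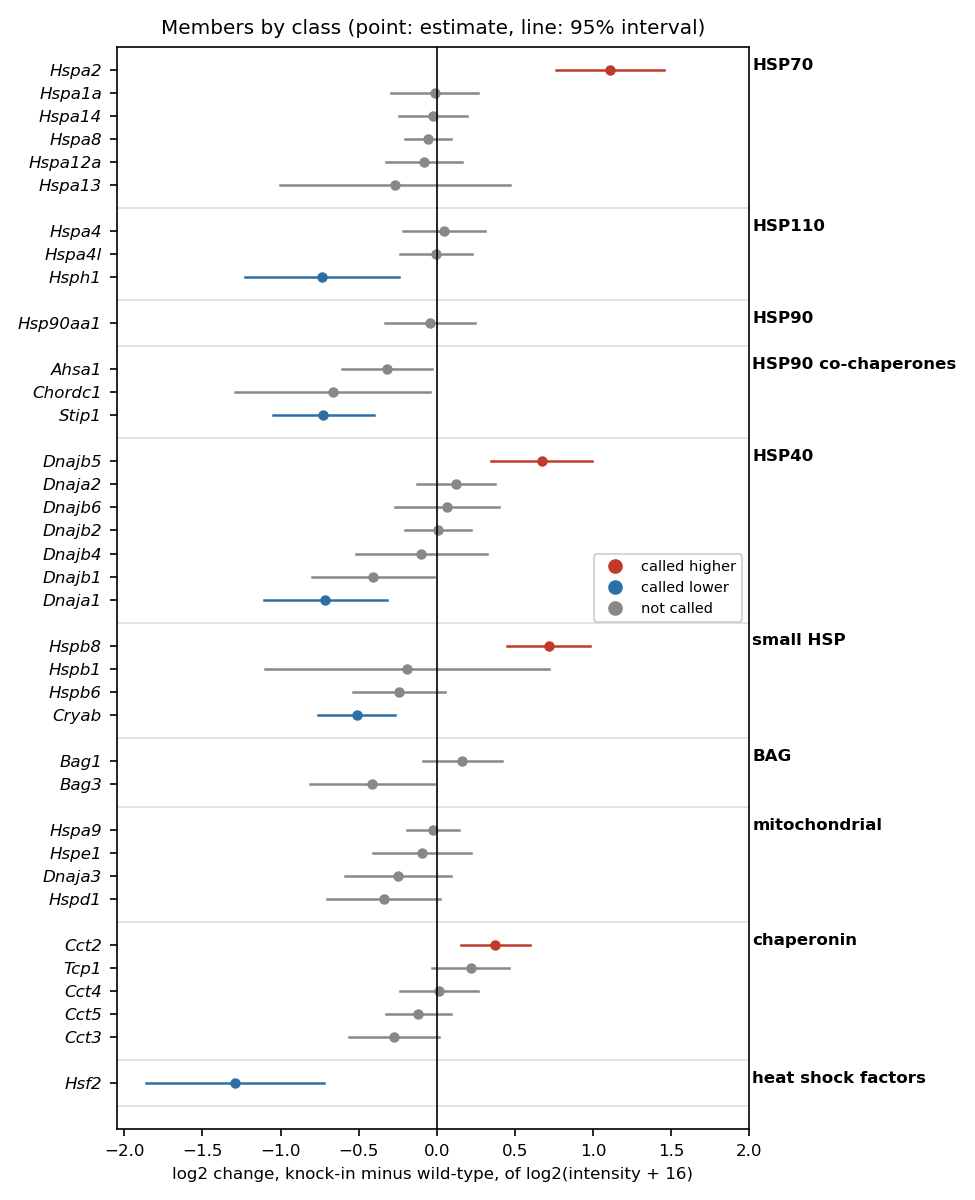
Log2 change of each of the 36 members, knock-in minus wild-type, on the scale of log2(intensity + 16), with its 95% interval from limma, grouped by class. Red points were called higher, blue points lower and grey points not called, and the called members run from Hsf2 at -1.29 to Hspa2 at 1.11.

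Promoters of 5 members are shown so that the binding letters of HSF1 can be read beside the changes in expression. They are RefSeq windows of 250 bases before the annotated start (assembly GRCm38.p6, the first start listed for a gene, 5′ to 3′ on the gene's strand). Capitals mark the letters GAANNTTC or TTCNNGAA, which are neighbouring units of the heat shock element and read the same on both strands. The 5 windows belong to the members with the largest fall (Hsf2) and the largest rise (Hspa2), to both called members among the 6 with the largest changes whose window holds the letters (Hsph1 and Dnaja1), and to Hspe1, a mitochondrial co-chaperonin that was not called and was added after its values were seen.
Hsf2, chr10:57486135-57486384, plus strand: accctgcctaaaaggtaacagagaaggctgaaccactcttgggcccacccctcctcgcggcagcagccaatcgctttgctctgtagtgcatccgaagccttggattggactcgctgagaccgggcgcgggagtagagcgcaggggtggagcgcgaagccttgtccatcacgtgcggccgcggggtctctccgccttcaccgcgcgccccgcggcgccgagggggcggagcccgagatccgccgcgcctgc
Hspa2, chr12:76404120-76404369, plus strand: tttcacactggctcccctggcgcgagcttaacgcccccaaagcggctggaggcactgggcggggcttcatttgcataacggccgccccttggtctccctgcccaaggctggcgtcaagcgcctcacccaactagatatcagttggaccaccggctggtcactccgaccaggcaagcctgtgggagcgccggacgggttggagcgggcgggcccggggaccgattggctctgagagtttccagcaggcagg
Hsph1, chr5:149636337-149636586, minus strand: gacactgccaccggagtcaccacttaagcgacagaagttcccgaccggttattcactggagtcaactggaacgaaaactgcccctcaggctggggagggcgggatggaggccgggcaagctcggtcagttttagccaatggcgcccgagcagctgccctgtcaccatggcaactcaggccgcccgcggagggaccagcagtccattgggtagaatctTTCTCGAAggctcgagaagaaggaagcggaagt
Dnaja1, chr4:40722218-40722467, plus strand: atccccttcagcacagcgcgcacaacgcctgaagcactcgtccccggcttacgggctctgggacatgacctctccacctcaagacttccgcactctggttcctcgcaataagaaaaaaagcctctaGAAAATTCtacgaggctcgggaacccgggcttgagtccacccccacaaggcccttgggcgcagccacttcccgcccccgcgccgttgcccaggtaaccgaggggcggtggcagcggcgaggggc
Hspe1, chr1:55087898-55088147, plus strand: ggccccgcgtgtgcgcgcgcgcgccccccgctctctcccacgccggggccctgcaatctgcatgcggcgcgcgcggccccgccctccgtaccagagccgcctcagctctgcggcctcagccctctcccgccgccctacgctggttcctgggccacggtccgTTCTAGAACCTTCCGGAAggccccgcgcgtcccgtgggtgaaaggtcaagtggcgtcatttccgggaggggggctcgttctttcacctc

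In the Hsph1 window the letters lie 26 to 33 bases before the start, and in the Dnaja1 window 117 to 124 bases before it. For Dnaja1 they were absent from the windows of the other 2 starts listed. The Hspe1 window holds a run of 18 bases with 4 alternating units, and the longer form of 3 alternating units in a row, searched on both strands, occurred in it as 2 overlapping matches. Of the members, 31 of 39 had a window in the RefSeq table. The first listed windows of 8 of these held either short form (25.8%), against 3489 of 27025 genes (12.9%). The 8 include Hspa1b, whose expression was not analysed. The 3-unit form was in 2 member windows (Hspe1 and Dnajb6) and in the first listed windows of 0.400% of genes. Neither of these genes was called, and among called members the first windows of Hsf2, Hspa2, Stip1, Hspb8, Dnajb5 and Cct2 lacked the letters, while the other window listed for Cct2 held 1 match. Cryab, the remaining called member, had no window. A match is a description of the sequence and does not show binding.

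Among HSP70 genes, Hspa2 was the called member. It encodes an HSP70 that is best known from the testis, where it is needed for meiosis in male germ cells, and that is also made at lower levels elsewhere. Hspa2 read 262, 376 and 263 in knock-in liver, against 128, 139 and 120 in wild-type liver. The wild-type signals were near the array median. Every knock-in mouse was above every wild-type mouse, with knock-in replicate 3 the highest. The means were 300.3 ± 65.5 in knock-in and 129 ± 9.54 in wild-type liver (SD, n = 3 each). On the scale of log2(intensity + 16), from which this and all later fold changes are taken, the change was 1.11 ± 0.15 (SE), or 2.16-fold (limma adjusted p = 0.00238). The other 5 HSP70 genes measured were not called. Hspa8, the constitutive HSC70, read 8821, 8545 and 8407 in knock-in and 8555, 8951 and 9353 in wild-type liver, and its interval of -0.21 to 0.09 on the log2 scale leaves room for a small difference in either direction. Its 3 probe sets gave log2 changes of -0.06 each. Stress-inducible Hspa1a, at its probe set annotated with 1 gene, read 126 to 155 in knock-in and 120 to 155 in wild-type liver. Its log2 change was -0.01 ± 0.12, and the groups overlapped fully. A further probe set that lists Hspa1a with another gene was not used. Whether the probe set used reads only Hspa1a was not tested. Hspa12a, a distant relative with an atypical ATPase domain, and Hspa14, which works with a J protein at the ribosome, had log2 changes of -0.08 and -0.02. Hspa13 varied among knock-in mice (379, 692 and 251) more than among wild-type mice (446, 504 and 526), with a log2 change of -0.27 ± 0.31. Without knock-in replicate 3 it was called lower at -0.64 (limma adjusted p = 0.0349). Other than Hsp90aa1, Bag1 and Hspa9, the members given mouse by mouse without a call were singled out after their values were seen.

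The HSP110 family holds exchange factors of HSP70, and Hsph1 was the member of it that fell. Hsph1 read 223, 323 and 217 in knock-in and 360, 379 and 570 in wild-type liver. All knock-in mice were below all wild-type mice, although knock-in replicate 3 came near wild-type replicate 2. This was a 1.66-fold fall, or -0.73 ± 0.21 in log2 (limma adjusted p = 0.0397). The call was lost without any 1 of knock-in replicates 1 and 5 or wild-type replicates 2, 4 and 6 (limma adjusted p = 0.0527 to 0.130). Its relatives Hspa4 and Hspa4l had log2 changes of 0.05 ± 0.11 and 0.00 ± 0.10 with overlapping groups. Hsph1 was also set against Hspa8 within each mouse, as a difference in log2 intensity with a wild-type mean of 0. The difference was -0.87, -0.32 and -0.84 in knock-in and -0.17, -0.17 and 0.34 in wild-type liver. Hspa8 itself lay between -0.09 and 0.06 of its wild-type mean in every mouse, so the difference mainly repeats the values of Hsph1. This pair and the other within-mouse pairs were chosen after their values were seen and carry no test.

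HSP90 itself was measured through Hsp90aa1, the stress-inducible cytosolic form, which read 1643, 1426 and 1901 in knock-in and 1734, 1579 and 1782 in wild-type liver. The groups overlapped, the log2 change was -0.04 ± 0.12, and the other 2 probe sets of the gene gave -0.05 and -0.07. Of the 3 co-chaperones of HSP90 among the members, 1 fell and 2 were not called. Stip1, also called HOP, bridges HSP70 and HSP90 and hands clients across. It read 627, 734 and 508 in knock-in and 1040, 996 and 1056 in wild-type liver. The wild-type mice lay within a narrow range, and all knock-in mice were below it, with knock-in replicate 5 the lowest. Means were 623 ± 113 in knock-in and 1031 ± 31.1 in wild-type liver (SD, n = 3 each), a log2 change of -0.73 ± 0.14 (limma adjusted p = 0.00872). Ahsa1, which stimulates the ATPase of HSP90, read 841, 847 and 865 in knock-in and 1113, 897 and 1206 in wild-type liver. Chordc1, a zinc-binding co-chaperone, read 278, 278 and 143 in knock-in and 395, 280 and 435 in wild-type liver. In both genes the groups did not overlap, by a margin of 2 intensity units for Chordc1, but neither was called (log2 changes -0.32 and -0.67; limma adjusted p = 0.103 and 0.111). Ahsa1 was called lower without wild-type replicate 4 and with array weights. Within each mouse, Stip1 minus Hsp90aa1 on the log2 scale, again set to a wild-type mean of 0, was -0.66, -0.23 and -1.16 in knock-in and -0.02, 0.05 and -0.04 in wild-type liver.

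**Figure D2:**
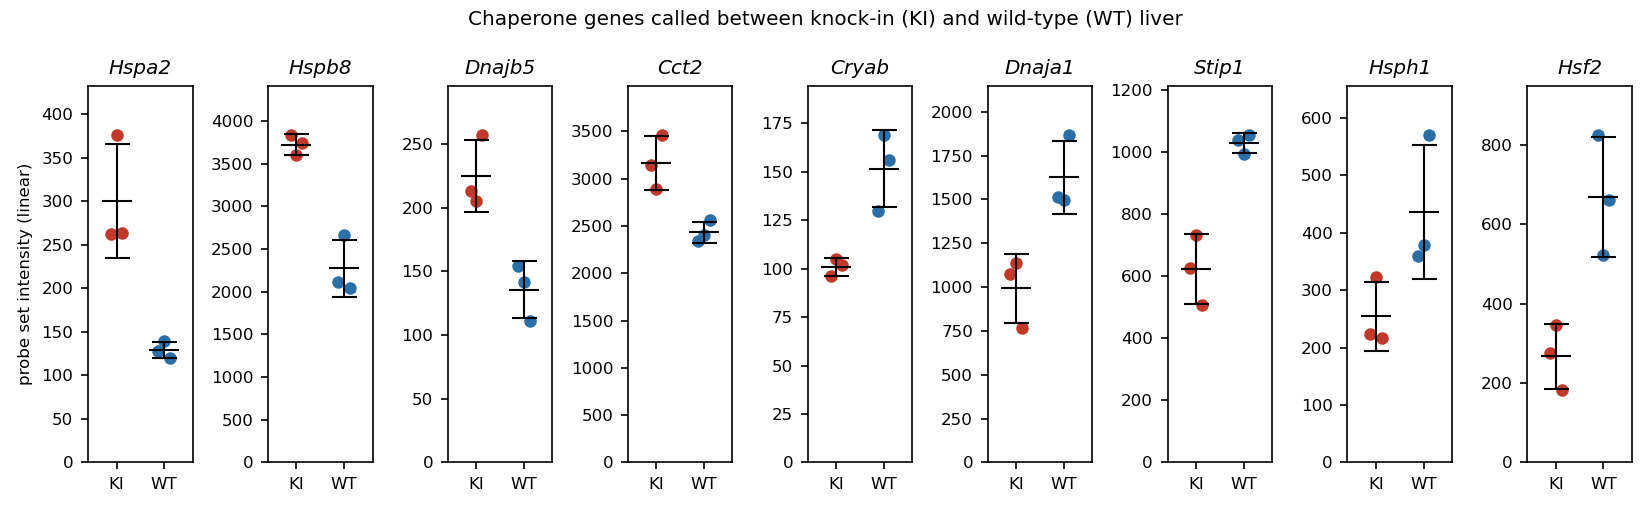
Probe set intensity in every mouse for the 9 called members, knock-in (KI, red) left of wild-type (WT, blue), with points in order of replicate number and bars for the mean ± SD of 3 mice. In each panel the 3 knock-in points lie on one side of the 3 wild-type points, and each axis starts at 0 with its own scale.

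Of the 7 HSP40 genes, 1 was called higher, 1 was called lower and 5 were not called. Dnaja1, a farnesylated J protein that works with HSC70, fell at both probe sets annotated with it alone. The brighter read 1074, 1138 and 767 in knock-in and 1514, 1495 and 1867 in wild-type liver, and the dimmer read 294, 441 and 254 in knock-in and 671, 595 and 820 in wild-type liver. Neither probe set showed overlap between the genotypes, and knock-in replicate 5 was the lowest mouse in both. The log2 changes were -0.71 ± 0.17 at the brighter (limma adjusted p = 0.0192) and -1.07 ± 0.21 at the dimmer (limma adjusted p = 0.00969). The call at the brighter was lost without wild-type replicate 6 (limma adjusted p = 0.0669). Dnajb5, a J protein close in sequence to Dnajb1 and known from heart muscle, moved the other way. It read 213, 205 and 257 in knock-in and 154, 142 and 111 in wild-type liver, with no overlap and wild-type signals near the array median. The log2 change was 0.67 ± 0.14, or 1.59-fold (limma adjusted p = 0.0114). Dnajb1, the stress-inducible HSP40, read 228, 242 and 166 in knock-in and 262, 255 and 340 in wild-type liver. Its groups did not overlap, yet its log2 change of -0.41 ± 0.17 was not called (limma adjusted p = 0.117). Dnaja2, Dnajb2, Dnajb4 and Dnajb6 lay between -0.10 and 0.12 on the log2 scale with overlapping groups. Dnajb6 was read from its 1 probe set without another gene, and 4 that list another gene as well were not used.

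Small heat shock proteins bind unfolding clients without ATP, and of the 4 members 1 was called higher, 1 was called lower and 2 were not called. Hspb8 acts with Bag3 in handing clients to autophagy. It read 3836, 3598 and 3742 in knock-in and 2115, 2660 and 2048 in wild-type liver. The knock-in mice lay close together, all above the highest wild-type mouse. Means were 3725 ± 119.9 in knock-in and 2274 ± 336 in wild-type liver (SD, n = 3 each). The fitted log2 change was 0.72 ± 0.11, or 1.64-fold (limma adjusted p = 0.00426). Cryab, or alpha B-crystallin, an abundant protein of lens and muscle, read 96, 105 and 102 in knock-in and 130, 169 and 156 in wild-type liver. These signals were near the array median, did not overlap, and gave a log2 change of -0.51 ± 0.11 (limma adjusted p = 0.0114). Cells other than hepatocytes can make Cryab, and markers of such cells moved in both directions. Over all genes tested, 13.0% were called higher and 13.7% lower. Of 7 stellate cell markers, Lrat and Ngfr were called lower and Dcn higher, and their sum was 7488 to 8875 in knock-in and 6681 to 7578 in wild-type liver. Of 8 muscle markers 0 were called by limma at an adjusted p below 0.05, with a sum of 940 to 1108 in knock-in and 910 to 1053 in wild-type liver. Of 10 Kupffer cell markers 1 (Adgre1) was called lower, with a sum of 3375 to 5983 in knock-in and 5029 to 8640 in wild-type liver. Of 7 markers of sinusoidal endothelium, Stab2, Clec4g and Kdr were called lower and Lyve1 higher, with a sum of 4765 to 6669 in knock-in and 5758 to 6131 in wild-type liver. The lymphocyte marker Cd79b, 1 of 6, was called lower, at 79 to 129 over all mice, near the array median. The sum of these 6 was 474 to 499 in knock-in and 511 to 575 in wild-type liver. The erythroid marker Alas2, 1 of 2, was called lower, and the sum of both was 265 to 383 in knock-in and 426 to 564 in wild-type liver. Of 4 cholangiocyte markers 0 were called, with a sum of 368 to 394 in knock-in and 367 to 391 in wild-type liver. The 1 adipocyte marker tested was not called. The part of these cells in the result for Cryab was not tested.

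Hspb1, the small heat shock protein HSP27 in human cells, was set apart by 1 mouse. It read 424, 444 and 1269 in knock-in and 800, 762 and 594 in wild-type liver, so that knock-in replicate 5 was the highest of all mice and the other knock-in mice were the lowest. Its second probe set gave 387, 418 and 1190 in knock-in and 753, 736 and 572 in wild-type liver. Over all mice the log2 change was -0.19 ± 0.39 and not called (limma adjusted p = 0.776), while without knock-in replicate 5 it was -0.70 and called (limma adjusted p = 0.0225). Hspb6, known from muscle, had a log2 change of -0.24 ± 0.13 with overlapping groups.

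Neither BAG protein was called. Bag1, an exchange factor that links HSP70 to the proteasome, read 556, 598 and 560 in knock-in and 542, 446 and 541 in wild-type liver, with all knock-in mice above and a log2 change of 0.16 ± 0.11 (limma adjusted p = 0.328). Bag3, the partner of Hspb8, read 253, 252 and 255 in knock-in and 276, 455 and 322 in wild-type liver, with all knock-in mice below and a log2 change of -0.42 ± 0.17 (limma adjusted p = 0.117). Within each mouse, Hspb8 minus Bag3 on the log2 scale, set to a wild-type mean of 0, was 1.18, 1.09 and 1.13 in knock-in and 0.21, -0.16 and -0.05 in wild-type liver. The 2 partners thus differed in their change by 1.13, with SDs of 0.04 over knock-in and 0.19 over wild-type mice.

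Mitochondrial chaperones were all uncalled. Hspa9, the mitochondrial HSP70, read 4401, 4844 and 4518 in knock-in and 4706, 4613 and 4663 in wild-type liver, and its interval of -0.19 to 0.14 is narrower than those of all other members measured except Hspa8. Hspe1 and Hspd1, which form the mitochondrial chaperonin, had log2 changes of -0.09 and -0.34 ± 0.16, and Dnaja3, a mitochondrial J protein, had -0.25 ± 0.15. All 4 estimates were below 0 and all groups overlapped. Hspd1 was called lower without knock-in replicate 3 and with array weights (limma adjusted p = 0.0396 at its smallest).

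The subunits of the cytosolic chaperonin, which assembles as a ring of different subunits, gave 1 call among 5, Cct2, which was higher. Cct2 read 3145, 2887 and 3461 in knock-in and 2336, 2406 and 2558 in wild-type liver. All knock-in mice were above all wild-type mice, and the log2 change was 0.37 ± 0.09 (1.30-fold; limma adjusted p = 0.0247). The call was lost without any 1 of knock-in replicates 1 and 5 or wild-type replicates 2, 4 and 6 (limma adjusted p = 0.0552 to 0.0884). Tcp1 (0.22 ± 0.11), Cct4 (0.01 ± 0.11), Cct5 (-0.12 ± 0.09) and Cct3 (-0.27 ± 0.12) were not called, although all knock-in mice were above wild-type for Tcp1 and below for Cct5. Within each mouse, Cct2 minus Cct3 on the log2 scale, also set to a wild-type mean of 0, was 0.76, 0.41 and 0.77 in knock-in and -0.13, 0.20 and -0.07 in wild-type liver. The ratio shows an unequal change of these probe sets and not the level of either subunit.

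Hsf2 had the largest fall among the members. It encodes a heat shock factor that forms mixed trimers with HSF1 and is active in development. Hsf2 read 275, 346 and 182 in knock-in and 825, 523 and 661 in wild-type liver. The highest knock-in mouse stood well below the lowest wild-type mouse, and knock-in replicate 5 was again the lowest. Means were 268 ± 82.2 in knock-in and 670 ± 151 in wild-type liver (SD, n = 3 each). The fitted log2 change was -1.29 ± 0.24, a 2.45-fold fall (limma adjusted p = 0.00843). It remained called under every alternative tried, with log2 changes between -1.49 and -1.06.

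**Figure D3:**
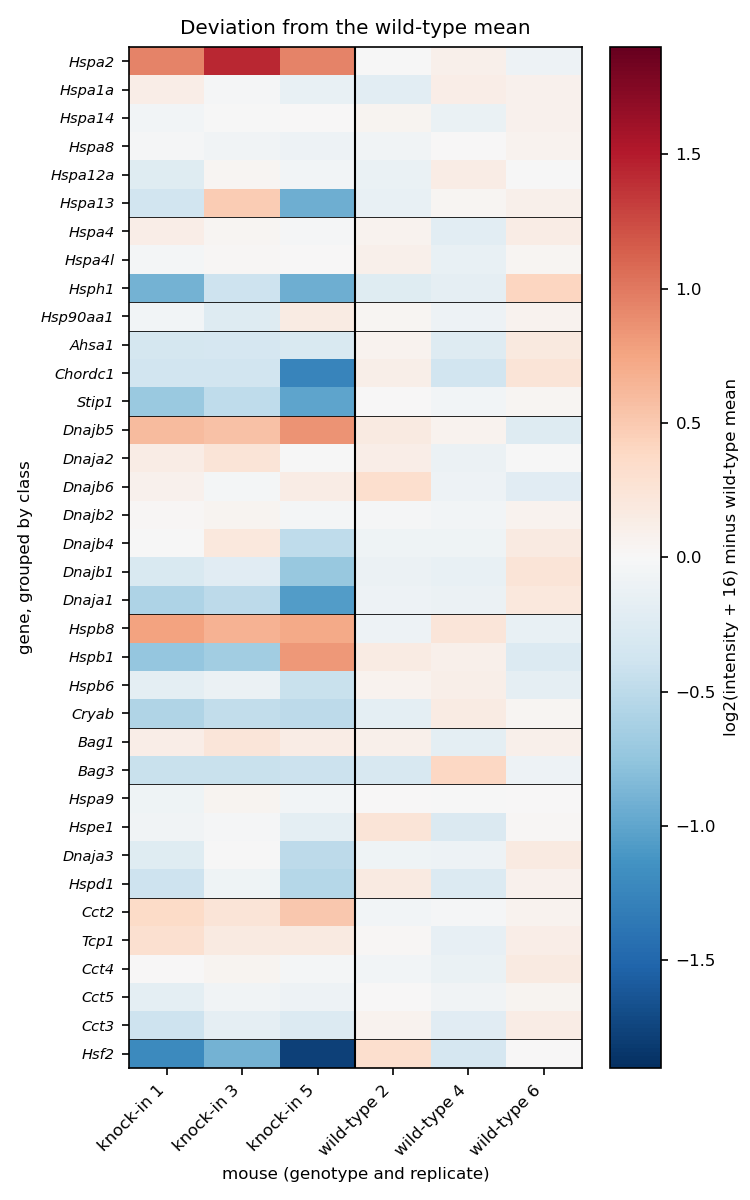
Deviation of each member in each mouse from the wild-type mean, on the scale of log2(intensity + 16), with knock-in mice in the left 3 columns and wild-type mice in the right 3. Hsf2 in knock-in replicate 5, at -1.77, is the deepest blue, and Hspa2 in knock-in replicate 3, at 1.44, the deepest red.

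The mice differed within a genotype. Of the 3 knock-in mice, replicate 5 had the lowest value at 19 of the 36 members, replicate 1 at 11 and replicate 3 at 6. The same count was not made over all genes, so it cannot be read as particular to the members. Replicate 5 also had the smallest summed signal of Kupffer cell markers (3375, against 5887 and 5983 in the other knock-in mice), whose part in the member values was not tested. The median deviation of the members from the wild-type mean was small in every mouse, at -0.08, -0.02 and -0.09 in knock-in and 0.01, -0.10 and 0.07 in wild-type liver. The knock-in medians lay within the wild-type range.

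Other genes of the same machinery were taken from a list of 89, of which 83 were tested. Of these, 13 were higher and 10 lower in knock-in liver (27.7% called, against the background of 26.7% of all genes), with a median log2 change of 0.01.

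**Figure D4:**
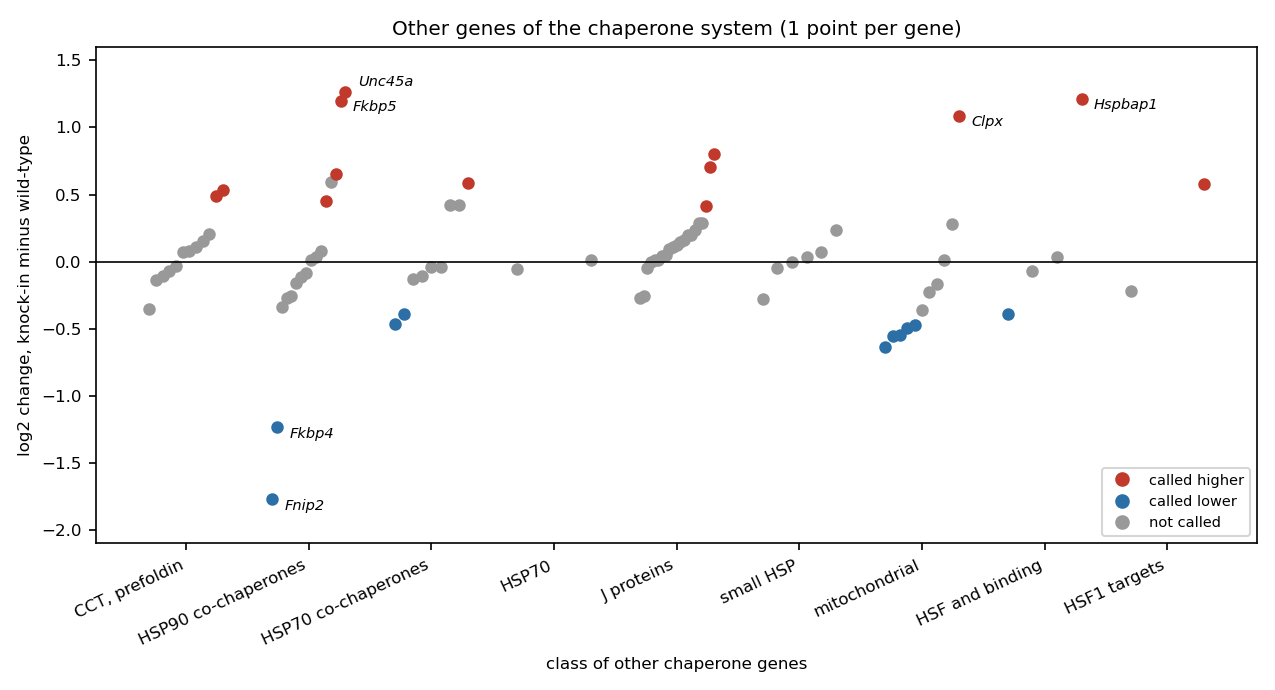
Log2 change, knock-in minus wild-type, of the 83 other chaperone genes tested, by class, in rank order within each class. The points beyond 1 in either direction are named, and they run from Fnip2 at -1.77 to Unc45a at 1.26.

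Among the other co-chaperones of HSP90, 4 of 16 were higher and 2 lower, where 13.0% of all genes were called higher and 13.7% lower. Unc45a, a myosin chaperone that binds HSP90, read 557, 597 and 638 in knock-in and 225, 232 and 263 in wild-type liver. Its log2 change was 1.26 ± 0.10, or 2.40-fold (limma adjusted p = 0.000492). Fkbp4 and Fkbp5 encode immunophilins that compete for the HSP90 complex of steroid receptors, and they moved in opposite directions. Fkbp4 read 303, 453 and 312 in knock-in and 869, 805 and 864 in wild-type liver, a log2 change of -1.23 ± 0.16 (limma adjusted p = 0.00200). Fkbp5, an induced target of the glucocorticoid receptor, read 2157, 2145 and 2213 in knock-in and 683, 856 and 1405 in wild-type liver, 2.29-fold higher with the wild-type mice spread widely (limma adjusted p = 0.00957). Fnip2, a folliculin partner that also binds HSP90, fell most of the list, to 202, 289 and 197 in knock-in liver, against 874, 809 and 751 in wild-type liver (log2 change -1.77; limma adjusted p = 0.000608). Its relative Fnip1, named after its values were seen, was called higher (log2 change 0.45 ± 0.11; limma adjusted p = 0.0223).

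Other co-chaperones of HSP70 gave 1 higher and 2 lower of 9. The counts in this paragraph stand beside 13.0% of all genes called higher and 13.7% called lower, and were not tested against them. Bag2, an inhibitor of the ubiquitin ligase CHIP, was higher (0.58 ± 0.13), and St13, which steadies HSP70 bound to clients, and Sil1, an exchange factor of the endoplasmic reticulum, were lower (-0.39 ± 0.09 and -0.46 ± 0.13). Each of these calls was lost without some single mice, which included wild-type replicates 2 and 6 for all 3 genes. Of 12 other chaperonin and prefoldin genes, the prefoldin subunit gene Vbp1 (0.53 ± 0.12) and Pdcl3, a phosducin-like partner of the chaperonin (0.49 ± 0.09), were higher and 0 were lower. The call of Vbp1 was lost without knock-in replicate 1. Of 21 other J proteins, Dnajc13, Dnajc21 and Dnajc9 were higher and 0 were lower. Dnajc21, which serves ribosome assembly, had a log2 change of 0.70 ± 0.11, and Dnajc9, which chaperones histones, had 0.41 ± 0.08.

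Of 11 other mitochondrial chaperones and proteases, 5 were called lower and 1 higher, where 13.7% of all genes were called lower and 13.0% higher. Whether the list differs from all genes was not tested. Trap1, the mitochondrial HSP90, read 1290, 1737 and 1271 in knock-in and 2185, 2257 and 2184 in wild-type liver, a log2 change of -0.63 ± 0.13 (limma adjusted p = 0.0119), and its call was lost without knock-in replicate 1 (limma adjusted p = 0.0519). Dnajc11, of the inner membrane organising complex, and Dnajc19, of the protein import motor, had log2 changes of -0.55 ± 0.09 and -0.47 ± 0.10. Clpb (-0.55 ± 0.12) and Grpel2 (-0.49 ± 0.15; limma adjusted p = 0.0462), named after their values were seen, were the others called lower. The call of Dnajc19 was lost when any 1 of knock-in replicate 1 and wild-type replicates 2 and 6 was left out. Clpx, the unfoldase of the mitochondrial ClpXP protease, went the other way, at 1431, 1357 and 1182 in knock-in and 566, 566 and 718 in wild-type liver (log2 change 1.09 ± 0.13; limma adjusted p = 0.00166).

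Around the heat shock factors, Hsbp1, a small protein that binds HSF1 trimers, was lower (-0.39 ± 0.11), and Hspbap1, named for its binding to HSP27, was higher at 264, 150 and 418 in knock-in and 108, 83 and 116 in wild-type liver (log2 change 1.21 ± 0.32). Of 2 further genes listed as HSF1 targets, Dedd2 was higher (0.58 ± 0.16). The calls of Hsbp1 and Dedd2 were each lost without any 1 of knock-in replicates 1 and 5 or wild-type replicates 2, 4 and 6, and that of Hspbap1 without knock-in replicate 1 or any wild-type mouse. Dedd2 was also lost with centred arrays.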

How the data were processed

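Liver RNA of 3 knock-in and 3 wild-type mice was labelled with biotin by in vitro transcription and hybridised to 1-colour arrays, 1 per mouse, per the labels' protocols. The deposited table holds 1 linear intensity per probe set and array, in whole numbers, for 35512 probe sets, with the authors' background correction, normalization and summarisation not given in the sources used here. The values entered the analysis as deposited. Intensities were transformed as log2(intensity + 16), and a fold change on this scale is smaller than the true one where a gene is dim. Probe sets with a mean log2 value below the 25th percentile were dropped. For the other 26634, knock-in minus wild-type was estimated with lmFit and trended eBayes of limma 3.58.1 (R 4.3.3), and p-values were adjusted by Benjamini-Hochberg over all of them. Log2 changes carry standard errors, and mean intensities carry SDs of 3 mice.

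Symbols came from the platform annotation, which can be old, where 21789 probe sets had 1 gene, 1621 had several and 12102 were not listed. Annotation with 1 gene does not show that a probe set reads only that gene. Probe sets of the same gene are not independent measures of it. Of the genes named, the text gives values in every mouse for called members and, in classes without a call, for the member with the highest mean. It also gives them for some uncalled members singled out after their values were seen. Of other chaperone genes it names up to 4 called per class by smallest p, and a few more that were named after their values were seen. The members, lists and pairs were chosen with earlier results of these data known, so counts over them are descriptions. The labels give 1 animal per array, and the number of arrays limits the precision. The procedure was run on simulated data with far fewer changes than were called here. That run checked that mean estimates lay near the planted changes, and it does not give the error rate of the calls here. Alternatives were other pseudocounts, normalizations, filters, eBayes settings, weights, thresholds and probe set rules, and each mouse left out. Promoter windows were read from the RefSeq table of GRCm38.p6. Figures were drawn with matplotlib 3.10.9.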

Additional observations from a re-analysis of the deposited data

How the results depend on the processing

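No paired analysis was possible because knock-in and wild-type mice share no replicate number. The 4 members called higher and 5 called lower were the same 9 genes with pseudocounts of 1 and 64, quantile normalization, centred arrays, a stricter filter at the 50th percentile, eBayes with no trend or with a robust prior, the mean of a gene's probe sets, a threshold of 0.1, and probe sets of exactly 1 gene. With array weights 8 were lower, the 3 added being Ahsa1, Cct3 and Hspd1. With no filter Hsph1 was lost (limma adjusted p = 0.0638). A fold limit of 1.5 removed Cct2 and Cryab, left 3851 of all probe sets called, and left 7 of the other chaperone genes higher and 3 lower. With single mice left out, 3 to 4 members were higher and 3 to 7 lower (3 without wild-type replicate 6, 7 without knock-in replicate 3), 4236 to 7725 probe sets were called, and 8 to 16 of the other chaperone genes were higher and 3 to 13 lower. Of the 9 calls, those of Hsf2, Hspa2, Hspb8, Stip1 and Dnajb5 held under all 19 alternatives, and 0 of the 9 changed sign under any. The median log2 change of the members lay between -0.14 and -0.05 over the same alternatives. The causes of these differences were not tested. With 3 mice per genotype, intervals such as that of Hspb1 (-1.10 to 0.72 in log2) leave large differences undetected.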

Other observations

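The J protein gene Dnajc13, an endosomal protein that acts with HSC70, had 15 probe sets annotated with it alone, and they did not read alike. Its log2 changes ran from -0.10 to 0.80 over these probe sets, and 3 of the 15 were called higher and 0 lower by limma. The probe set that represents it above, the brightest, read 1586, 1315 and 1783 in knock-in and 966, 833 and 847 in wild-type liver, and the call was lost when the probe sets of a gene were averaged. Among the members, the 3 probe sets of Hspa8 all gave -0.06 and the 3 of Hsp90aa1 lay between -0.07 and -0.04.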
